A study of Ovis aries with 10 samples.

Results

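The genes described here act in cyclic GMP (cGMP) signalling, and were measured in adrenal glands of fetal sheep exposed to endotoxin. They are the guanylin peptides GUCA2A and GUCA2B, their receptor GUCY2C, the soluble guanylyl cyclase subunits GUCY1A1 and GUCY1B1, the natriuretic peptide receptors NPR1, NPR2 and NPR3, the kinase PRKG1 and the phosphodiesterase PDE5A. The genes were chosen by symbol, with values of the same endotoxin and control comparison already known from the authors' deposited table, so their differences are given as a description. All 10 symbols were found there, each in 1 row, among 19316 rows.

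The study compared 5 libraries of the endotoxin group with 5 of the control group, all from adrenal glands of Ovis aries fetuses at a gestational age of 102 days. The endotoxin group had been given an injection of endotoxin, the lipopolysaccharide of Gram-negative bacteria, and the control group an injection of saline solution. Each group held 3 libraries labelled female and 2 labelled male. Genotype and strain are not given in the labels beyond the letters WT in the titles of the control libraries. The labels also do not say whether ewe, fetus or amniotic cavity was injected, or whether each library came from a separate pregnancy.

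Cyclic GMP is made by membrane cyclases that bind peptides and by soluble cyclases that bind nitric oxide. Natriuretic peptides act on the membrane cyclases NPR1 and NPR2 and are cleared by NPR3, and in the adrenal cortex they are known to restrain aldosterone secretion. Guanylin and uroguanylin, the products of GUCA2A and GUCA2B, are best known from the intestine, where they act through GUCY2C on salt and water transport.

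Levels below are group means in TPM, a relative abundance per library in which longer transcripts are not favoured. The authors' deposited table gives 1 mean per group and no value per library, so a mean stands without an error and overlap between the groups cannot be seen. Its model gives each row a standard error (SE) and a test score, and the log2 fold changes below are score times SE, endotoxin over control. That table heads its groups A and B, and B was read as the endotoxin group. The libraries held 12494386 to 18324516 estimated counts in a separate table whose gene IDs were not paired with symbols here. Markers of the labelled tissue were abundant. STAR, the cholesterol carrier of steroid cells, had means of 1027 TPM in the endotoxin group and 481 TPM in the control group. TH, the first enzyme of catecholamine synthesis, had 1343 and 1254 TPM in the endotoxin and control groups.

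GUCA2A, which encodes guanylin, had the widest gap between group means among the 10 genes. Its mean was 24.2 TPM in the endotoxin group and 1.76 TPM in the control group, a 13.8-fold ratio. It was the most abundant of the 10 transcripts in the endotoxin group and held place 8 in the control group. In the authors' deposited table its p-value and adjusted p-value are both set to 1, as in 80 rows altogether, so it was taken as having no test result and is given by its means alone. A mean of 24.2 TPM over 5 libraries is a sum of 121 TPM, and the table does not show how that sum was shared among the 5 endotoxin libraries. Of the 14402 rows averaging 1 TPM or more over both groups, 24 had a ratio of endotoxin to control at least as high, GUCA2A included. Of the 54 such rows without a p-value, GUCA2A was the only one to reach that ratio.

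GUCA2B, which encodes uroguanylin, had a mean of 0.440 TPM in the endotoxin group and was listed at 0 in the control group. No fold change is printed against a group listed at 0, and in the authors' deposited table its adjusted p was 0.834. Its model value, which was smaller than its own SE, still enters the medians given below. GUCA2A and GUCA2B are neighbours in the reference sheep gene table, with 0 protein-coding genes between them.

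GUCY2C, the membrane cyclase that binds both peptides, had almost the same mean in each group, at 4.07 TPM in the endotoxin group and 4.12 TPM in the control group. In the authors' deposited table its log2 fold change was 0.08 ± 0.26 (SE; adjusted p = 0.972), with a 95% interval of -0.42 to 0.58. On the ratio of group means plus 1 TPM its sign was the other way, at -0.01. Set against its receptor, the GUCA2A mean was 5.95 times that of GUCY2C in the endotoxin group and 0.427 times in the control group.

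Guanylin is a product of gut epithelium, so markers of that tissue were read beside it. Of 8 gut epithelial markers 6 had a row, with a summed level of 2.37 TPM in the endotoxin group and 2.14 TPM in the control group. EPCAM made up most of it, with 1.82 TPM in the endotoxin group and 1.66 TPM in the control group. MUC2 and TFF3 had no row under those symbols and were not analysed here. CDX2 was listed at 0 TPM in the endotoxin group and had 0.00745 TPM in the control group. VIL1 had 0.0434 and 0.0455 TPM and FABP2 0.111 and 0.0436 TPM in the endotoxin and control groups. None of the 5 with a p passed in the authors' deposited table, and 0 had an unadjusted p under 0.05. Markers of several other cell types had higher or lower sums with endotoxin. All 6 neutrophil markers with a row rose in the authors' deposited table, summing to 1918 TPM in the endotoxin group and 46.6 TPM in the control group. Adrenal cortex markers summed to 1625 and 709 TPM and fibroblast markers to 799 and 1280 TPM in the endotoxin and control groups. The part of gut epithelium or of any of these cells in the GUCA2A level was not tested.

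**Figure D1:**
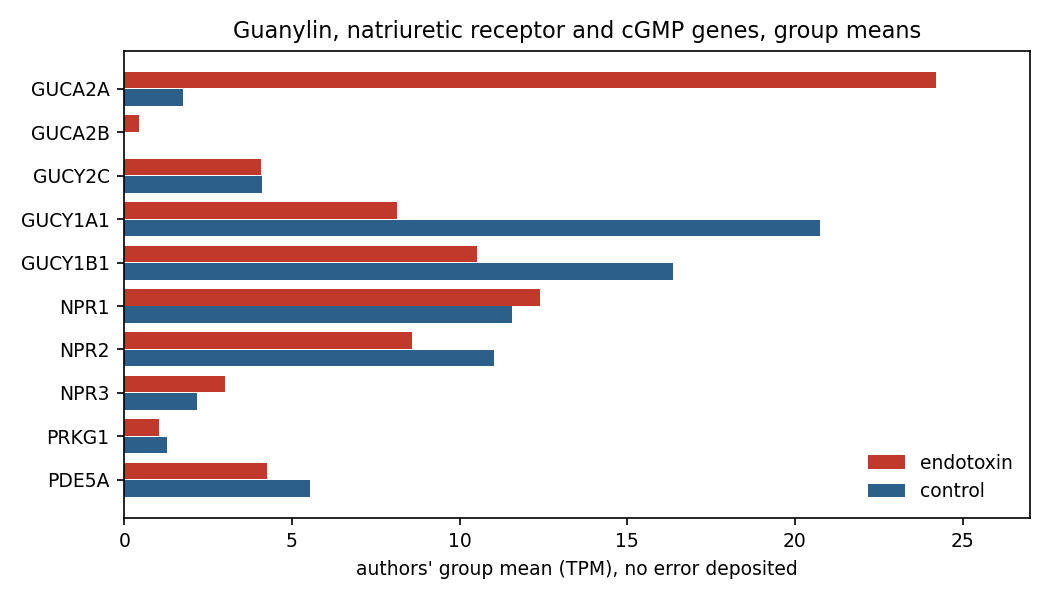
Group means of the 10 genes in TPM (horizontal axis), endotoxin above control for each gene, with no error bars because the table used holds means alone. GUCA2A stands at 24.2 TPM with endotoxin against 1.76 TPM in controls, while GUCY1A1 and GUCY1B1 have the shorter bar with endotoxin.

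**Figure D2:**
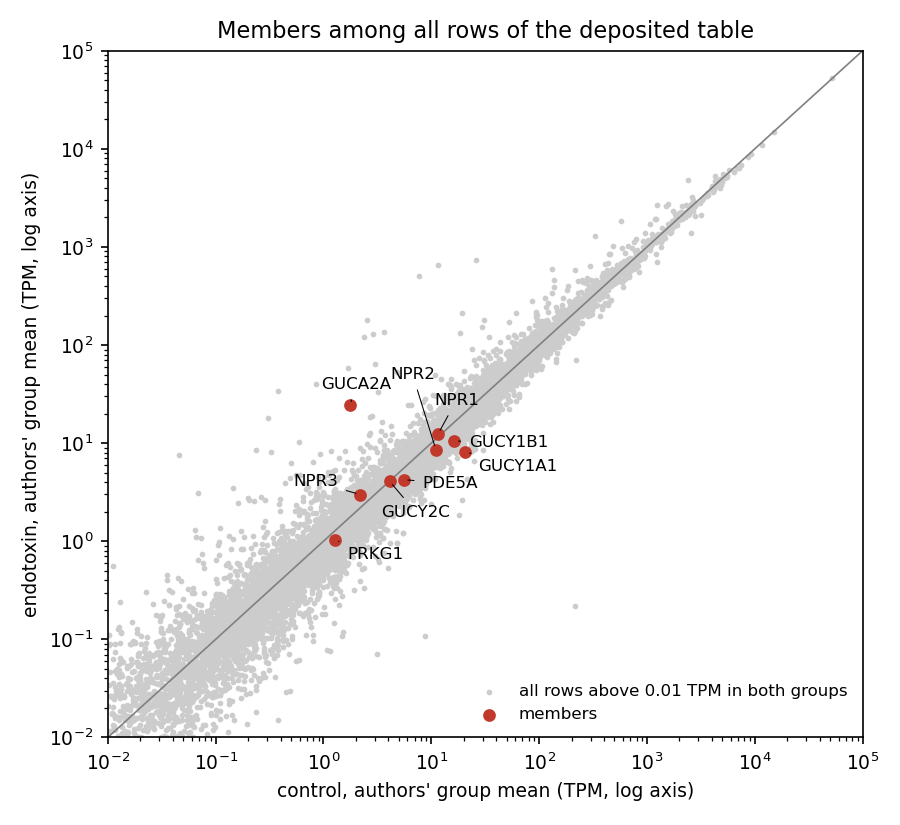
Endotoxin group mean (vertical) against control group mean (horizontal) in TPM, both on log axes, with rows above a small minimum in grey, the members in red and the line of equal means. GUCA2A lies well above the line and GUCY1A1 below it; GUCA2B, listed at 0 in controls, cannot be drawn on a log axis.

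Both subunits of soluble guanylyl cyclase, the nitric oxide receptor, had lower means with endotoxin. GUCY1A1, the alpha-1 subunit, had a mean of 8.13 TPM in the endotoxin group and 20.8 TPM in the control group. On the log2 scale the authors' deposited table puts it at -1.19 ± 0.34 (SE; adjusted p = 0.0357). GUCY1B1, the beta-1 subunit that carries the heme, had a mean of 10.5 TPM in the endotoxin group and 16.4 TPM in the control group. Its log2 fold change was -0.48 ± 0.18 (SE), with p = 0.00808 unadjusted and 0.168 adjusted in the authors' deposited table, so it missed the threshold of 0.05. The interval of GUCY1A1 ran from -1.85 to -0.52 and that of GUCY1B1 from -0.84 to -0.13, and the difference between them was not tested. The alpha-1 mean was 0.773 times the beta-1 mean in the endotoxin group and 1.27 times in the control group.

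These subunits held the top places of the 10 genes in the control group, and in the endotoxin group GUCY1B1 held place 3 and GUCY1A1 place 5. Their genes are neighbours in the reference sheep gene table, with 0 protein-coding genes between them. In whole tissue, fewer cells of a type and less RNA per cell cannot be told apart.

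GUCY1A1 is known from pericytes and vascular smooth muscle, and markers of those cells differed among themselves. RGS5, a pericyte gene, was lower with endotoxin, with means of 69.9 TPM in the endotoxin group and 221 TPM in the control group and, in the authors' deposited table, a log2 fold change of -1.51 ± 0.41 (SE; adjusted p = 0.0198). The other 8 markers had log2 fold changes between -0.23 and 0.22 and none passed, at adjusted or unadjusted p. Without RGS5 these 8 summed to 402 TPM in the endotoxin group and 467 TPM in the control group, with none at 0. All 4 fibroblast markers with a row had negative values and 0 passed, at adjusted or unadjusted p, and they summed to 799 TPM in the endotoxin group and 1280.0 TPM in the control group. Their part in the GUCY1A1 difference was not tested.

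Among the 9 genes with a p, 1 was called in the authors' deposited table at an adjusted p under 0.05, against 1.72% of all 19236 rows with a p. It was GUCY1A1, so 1 of 9 was called lower, where 0.426% of all rows were. None of the 9 was called higher, where 1.29% of all rows were, and at an unadjusted p under 0.05 the count was 2, GUCY1A1 and GUCY1B1, both lower. The median log2 fold change of the 9 was -0.19, beside 0.0071 over all rows with a p. Since the genes were chosen with this comparison known, these counts are a description.

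None of the natriuretic peptide receptors passed the threshold, at adjusted or unadjusted p. NPR1, the cyclase receptor of atrial and B-type natriuretic peptide, had a mean of 12.4 TPM in the endotoxin group and 11.6 TPM in the control group. In the authors' deposited table its log2 fold change was 0.22 ± 0.20 (SE; adjusted p = 0.753), with an interval of -0.18 to 0.62. NPR2, the cyclase receptor of C-type natriuretic peptide, had 8.58 TPM in the endotoxin group and 11.0 TPM in the control group. The authors' deposited table puts its log2 fold change at -0.23 ± 0.16 (SE; adjusted p = 0.584), with an interval of -0.54 to 0.07. The level of NPR1 was 1.44 times that of NPR2 in the endotoxin group and 1.05 times in the control group.

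NPR3, the clearance receptor without a cyclase domain, was the scarcest of the receptors, with 2.99 TPM in the endotoxin group and 2.18 TPM in the control group. Its log2 fold change of 0.56 ± 0.45 (SE; adjusted p = 0.687) in the authors' deposited table had a wide interval of -0.32 to 1.45. The NPR3 level was 0.242 times that of NPR1 in the endotoxin group and 0.188 times in the control group.

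Downstream of the cyclases, PRKG1, the main cGMP-dependent kinase of smooth muscle, was among the lowest of the 10 genes. Its mean was 1.03 TPM in the endotoxin group and 1.27 TPM in the control group, a log2 fold change of -0.19 ± 0.33 (SE; adjusted p = 0.929) in the authors' deposited table. PDE5A, which breaks down cGMP and is the target of sildenafil, had 4.24 TPM in the endotoxin group and 5.54 TPM in the control group. For PDE5A the authors' deposited table gives -0.26 ± 0.26 on the log2 scale (SE; adjusted p = 0.788), with an interval of -0.76 to 0.24, and that of PRKG1 was -0.84 to 0.45.

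**Figure D3:**
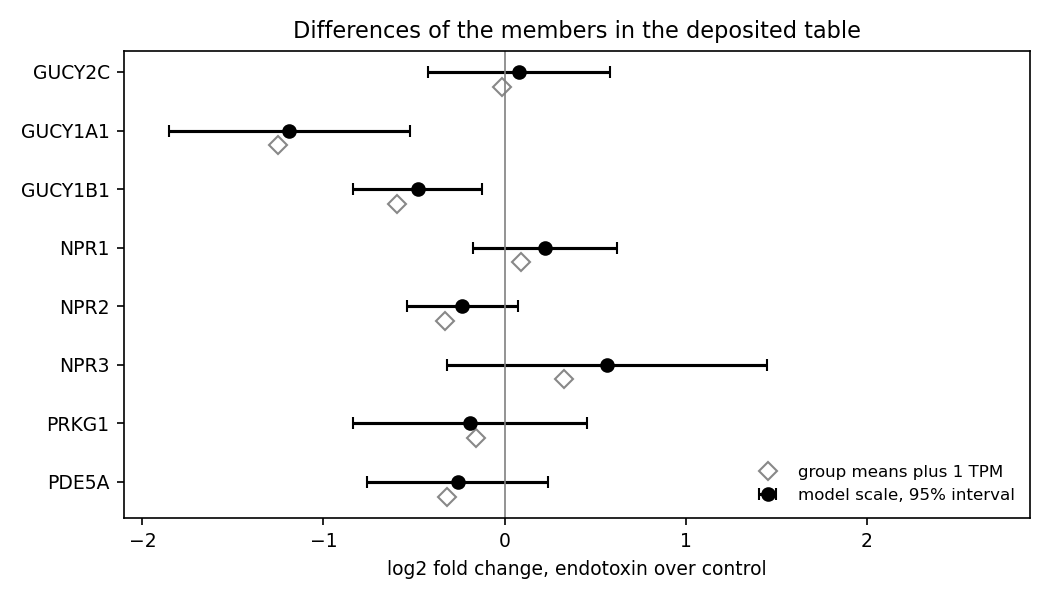
Log2 fold changes, endotoxin over control, of the 8 genes with a p and a control mean above 0; black points with bars are the model values with 95% intervals, and open diamonds are the ratios of group means plus 1 TPM. The intervals of GUCY1A1 and GUCY1B1 lie below 0, and the other 6 include 0.

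In order of level, the endotoxin group ran GUCA2A, NPR1, GUCY1B1, NPR2, GUCY1A1, PDE5A, GUCY2C, NPR3, PRKG1 and GUCA2B. The control group ran GUCY1A1, GUCY1B1, NPR1, NPR2, PDE5A, GUCY2C, NPR3, GUCA2A, PRKG1 and GUCA2B. Without values per library it cannot be said which neighbours in either order differ beyond their spread. The control mean of GUCY1A1 exceeded that of 74.6% of all rows, and its endotoxin mean that of 57.3%. For GUCA2A the shares were 77.9% of all rows with endotoxin and 30.9% in controls.

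The genes around these 10 were read in 8 lists, chosen with earlier results of these data known, and differences in them are log2 fold changes. Their medians stand beside 0.0071 over all rows with a p, of which 12.9% had an unadjusted p under 0.05. In the list of guanylin peptides and membrane cyclases, 0 of the 6 genes with a p passed in the authors' deposited table, at adjusted or unadjusted p, and the median was 0.15. Of the peptides, NPPC, which encodes C-type natriuretic peptide, had 8.17 TPM in the endotoxin group and 4.71 TPM in the control group, at 0.90 ± 0.69 (SE; adjusted p = 0.665) in the authors' deposited table. FURIN, a protease that processes propeptides, had 21.0 and 18.3 TPM in the endotoxin and control groups. NPPA and NPPB, the genes of the atrial and B-type peptides, were scarce, with 0.478 and 0.577 TPM in the endotoxin group and 0.251 and 0.495 TPM in the control group. Of the 8 genes with a row in this list of peptides and their processing, none passed in the authors' deposited table, and 1, FURIN, had an unadjusted p under 0.05. The list median was 0.31.

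In the list of nitric oxide synthesis and soluble cyclase, 1 of 16 genes passed in the authors' deposited table, GUCY1A1 itself, and the median was 0.08. At an unadjusted p under 0.05 the count was 3, GUCY1A1 and GUCY1B1 with negative values and NOS3 with a positive one. The endothelial synthase NOS3 had 5.32 TPM in the endotoxin group and 4.33 TPM in the control group, in the authors' deposited table at 0.40 ± 0.17 (SE; adjusted p = 0.243). The inducible synthase NOS2 had 1.30 and 1.21 TPM in the endotoxin and control groups, at 0.20 ± 0.22 (SE; adjusted p = 0.825) in that table. The neuronal synthase NOS1 was near 0, with 0.0854 TPM in the endotoxin group and 0.164 TPM in the control group. DDAH2 and GCH1, which makes the synthase cofactor tetrahydrobiopterin, were the most abundant of the list. GCH1 had 82.7 TPM in the endotoxin group and 123 TPM in the control group, at -0.39 ± 0.36 (SE; adjusted p = 0.755) in the authors' deposited table, and DDAH2 had 104 and 114 TPM in the endotoxin and control groups. The other alpha subunit, GUCY1A2, had no row under that symbol and was not analysed here.

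In the list of cGMP-hydrolysing or cGMP-regulated phosphodiesterases and their subunits, 0 of 15 genes passed in the authors' deposited table. At an unadjusted p under 0.05 the count was 3, PDE2A, PDE10A and PDE6G, all with positive values. The median was -0.11. PDE2A, which cGMP stimulates to break down cAMP, had 27.6 TPM in the endotoxin group and 21.0 TPM in the control group, at 0.53 ± 0.20 (SE; adjusted p = 0.17) in the authors' deposited table. PDE10A had 3.59 and 2.73 TPM in the endotoxin and control groups and PDE6G 4.20 and 1.32 TPM, with adjusted p of 0.254 and 0.29 in that table. PDE6D, a carrier of prenylated proteins, was the most abundant, with 103 TPM in the endotoxin group and 97.5 TPM in the control group.

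Of 17 cGMP effectors and kinase substrates, none passed in the authors' deposited table and 5 had an unadjusted p under 0.05, ITPR1, VASP and CNGA3 with positive and PRKG2 and PPP1R12A with negative values. The median was 0.04. VASP and PLN, substrates of the kinase, had 57.6 and 50.0 TPM in the endotoxin group and 53.3 and 40.4 TPM in the control group. PRKG2, the membrane-bound kinase, had 0.509 TPM in the endotoxin group and 1.28 TPM in the control group, at -1.17 ± 0.49 (SE; adjusted p = 0.239) in the authors' deposited table. ITPR1, the calcium release channel that the kinase complex regulates in smooth muscle, had 6.80 and 3.37 TPM in the endotoxin and control groups, at 1.12 ± 0.40 (SE; adjusted p = 0.134) in that table. ABCC5, an exporter of cGMP, had 20.3 TPM in the endotoxin group and 24.4 TPM in the control group, in the authors' deposited table at -0.16 ± 0.28 (SE; adjusted p = 0.934).

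Of the 6 genes with a row in the list of epithelial ion transport, 3 averaged 1 TPM or more over both groups, and the channel and exchanger that guanylin acts on in the gut were below that. CFTR, the chloride channel, had 0.0475 TPM in the endotoxin group and 0.0535 TPM in the control group, and SLC9A3, the sodium-proton exchanger, had 0.281 and 0.303 TPM in the endotoxin and control groups. SLC9A3R1, a scaffold protein of many epithelia, was the most abundant of the list, with 105 TPM in the endotoxin group and 60.2 TPM in the control group, at 0.91 ± 0.31 (SE; adjusted p = 0.103) in the authors' deposited table. SLC26A6, an anion exchanger, had 3.81 and 3.17 TPM in the endotoxin and control groups. In this list 0 passed there and 1, SLC9A3R1, had an unadjusted p under 0.05. The median was 0.20.

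In the list of angiotensin, aldosterone and salt balance, 1 of 14 genes passed in the authors' deposited table, and it rose. At an unadjusted p under 0.05 the count was 6, with 5 positive values and 1 negative, and the median was 0.12. SCNN1B, the beta subunit of the epithelial sodium channel, had 3.45 TPM in the endotoxin group and 0.144 TPM in the control group, a log2 fold change of 4.65 ± 1.14 (SE; adjusted p = 0.00726) in the authors' deposited table. On the ratio of group means plus 1 TPM, which understates changes of low genes, it was 1.96. SCNN1G, the gamma subunit, had 0.398 and 0.0476 TPM in the endotoxin and control groups, at 3.15 ± 1.13 (SE; adjusted p = 0.134) in that table. SCNN1A, the alpha subunit, had 1.13 TPM in the endotoxin group and 2.18 TPM in the control group, at -0.79 ± 0.35 (SE; adjusted p = 0.271) in the authors' deposited table, so the subunits did not share a sign. AGTR1, the angiotensin II receptor of the aldosterone-making zone, had 140 TPM in the endotoxin group and 150 TPM in the control group. HSD11B2, which inactivates cortisol, had 82.3 and 50.1 TPM in the endotoxin and control groups, at 0.81 ± 0.29 (SE; adjusted p = 0.126) in the authors' deposited table.

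**Figure D4:**
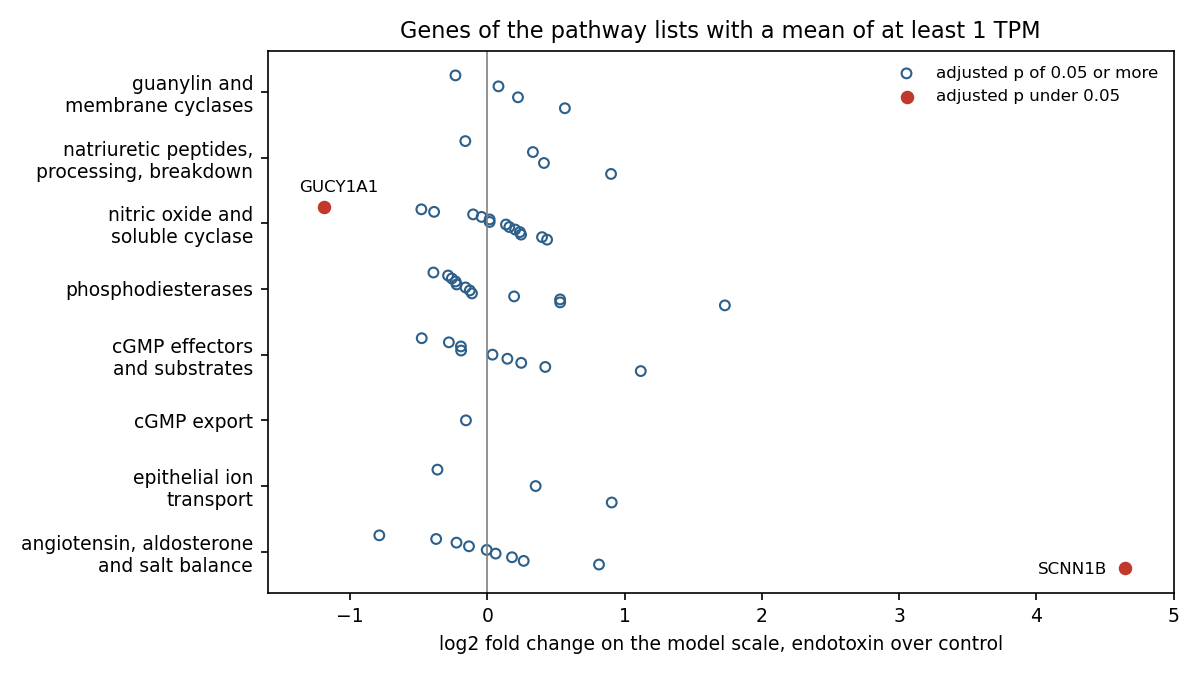
Log2 fold changes on the model scale, endotoxin over control (horizontal axis), of the genes with a p and a mean of at least 1 TPM in the 8 pathway lists; filled points have an adjusted p under 0.05. GUCY1A1, at -1.19, and SCNN1B, at 4.65, are the filled points.

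Markers of the cell types that the gland could hold were also read. Of 7 endothelial markers, which mark a main site of NPR1 and NOS3, all had positive values and 0 passed in the authors' deposited table, with 1, VWF, at an unadjusted p under 0.05. They summed to 294 TPM in the endotoxin group and 247 TPM in the control group. All 4 adrenal cortex markers were positive with an unadjusted p under 0.05 and 2, STAR and CYP11A1, rose in the authors' deposited table, the list summing to 1625 and 709 TPM in the endotoxin and control groups. Of 4 chromaffin markers 0 passed and 1, PNMT, had an unadjusted p under 0.05, and of 3 Schwann and glial markers with a p 0 passed at either. All 5 erythroid markers with a row were positive, 4 at an unadjusted p under 0.05, and 1, HBM, rose in the authors' deposited table. They summed to 49.2 TPM in the endotoxin group and 27.3 TPM in the control group. Of 5 kidney markers 0 passed at either, and they summed to 0.62 TPM in the endotoxin group and 0.753 TPM in the control group. Of 6 platelet markers, read because platelets carry soluble cyclase and PDE5A, 1 had a row, PPBP, with 5.06 TPM in the endotoxin group and 1.09 TPM in the control group (in the authors' deposited table, p = 0.00453 unadjusted and 0.126 adjusted). The part of these cells in the members' values was not tested.

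In the authors' deposited table of KEGG categories, GUCY1A1 was the only one of the 10 genes named as changed, in 9 of 98 entries, with unadjusted p between 0.00971 and 0.799. The lowest was that of salivary secretion, with 5 changed genes of 60, namely CATHL3, BAC5, SC5, GUCY1A1 and ADCY1. The category of cGMP-PKG signalling held 2 changed genes of 134, GUCY1A1 and the adenylyl cyclase ADCY1, and had the highest, an unadjusted p of 0.799 in that table.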

How the data were processed

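The RNA was made into strand-specific libraries, per the labels' protocols. Of tools, the submitters' processing notes list Salmon 0.9.1, fastp 0.19.4 and, with no version, DESeq2; they list the build Oar_v3.1, and give no step to any of these. For each row the authors deposited the mean of each group, read as TPM because each column has the sum that TPM columns have. They also deposited a log2 value, an SE, a test score, a p-value and its adjusted value. Recomputed here, the deposited log2 value was the log2 ratio of the 2 means, each plus 1 TPM, in every row. The deposited p-value was the two-sided normal p of the score where it was not set to 1, and the adjusted value a Benjamini-Hochberg adjustment over the rows with a p. Fold changes printed are score times standard error, with intervals of 1.96 standard errors. The columns are headed A and B, and B was read as the endotoxin group. This was checked on large changes. Folds in this check are ratios of group means, each plus 1 TPM, so they are smaller than plain ratios where levels are low. In the authors' TPM table with labelled libraries 16 IDs were at least 8-fold higher and 3 lower with endotoxin. Among the rows of the comparison 19 were higher and 3 lower in B on that scale. The check compares these counts only, since the tables are not the same quantification: of 10360 rows of the comparison with a mean above 5 TPM, 3 had a row of equal group means in the labelled table (relative tolerance 0.0001). If that reading were wrong, every direction would turn.

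The authors' table of estimated counts and the TPM table have 20781 gene IDs with the prefix ENSBTAG and no symbols, of which 0 were in the reference gene table (assembly ARS-UI_Ramb_v3.0), so the edgeR test planned for these genes was not run. The 10 members were all in that table, which served only for neighbours. The p-values set the difference between the groups against the spread between these samples, part of which may be technical. Members and the 19 lists of 8 pathways and 11 cell types were chosen with earlier results of these data known. The rule named every member and, from each pathway list, the genes past an adjusted p of 0.05 (at most 4) and the 2 of highest mean. NPPA, NPPB, NOS1, NOS2, NOS3, PDE6G, PDE10A, PRKG2, ITPR1, CFTR, SLC9A3, SCNN1A, SCNN1G, CNGA3, PPP1R12A and single cell-type markers were named after their values were seen. Steps used Python 3.11.15, pandas 2.3.3 and scipy 1.17.1. The adjustment, the calls and the fold changes as score times SE were run on simulated scores, and the other steps were not.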

Additional observations from a re-analysis of the deposited data

How the results depend on the processing

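For the 8 genes with a p and a control mean above 0, the log2 fold change was also taken from the deposited log2 column, from group means plus 0.1 TPM and after subtracting the median of rows averaging 1 TPM or more. All 24 values so obtained lay within 1 standard error of the value printed, and 2 turned their sign, both of GUCY2C (-0.01 and -0.02). That median was 0.01 for model values, and -0.10 for means plus 1 TPM. Each setting reworks the same deposited values of a gene, so the closeness of the results does not test how they depend on the libraries. For GUCY1A1 the alternatives lay between -1.34 and -1.20. The count of members called was 1 with the adjustment recomputed, which gave back the deposited values and so could not differ. It was also 1 with rows of at least 1 TPM alone, where the adjusted p of GUCY1A1 was 0.0298 and that of GUCY1B1 0.138. No member has a further row to exchange. No paired analysis was possible because the comparison table holds no values per library and the IDs of the count table were not paired with symbols. For the same reason the DESeq2, filter, sex and leave-one-out alternatives of the count table were not run, so whether 1 library decides the value of GUCA2A or GUCY1A1 was not tested.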
